A study of Homo sapiens with 4 samples.

Results

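Integrin alpha v and the beta subunits that pair with it are described here on 4 expression arrays. The cells were SK-N-AS, a long-established line from a human neuroblastoma. The genes were chosen by name, as ITGAV (alpha v) and ITGB1, ITGB3, ITGB5, ITGB6 and ITGB8 (its beta partners), so they are 6 of the 17687 genes named on the array. Each has 1 probe set. The treated cells received 30 µM BG-P400-TAT for 48 h (2 arrays), and the untreated cells received phosphate-buffered saline for the same time (2 arrays). The series title gives the norepinephrine transporter and integrin αvβ3, there named thyrointegrin, as the targets of BG-P400-TAT. Both groups grew in IMDM medium with fetal bovine serum, which itself supplies fibronectin and vitronectin to cultured cells. All values come from a single cell line. The sources used here do not say how the cultures of a group were kept apart, and the p-values below reflect only how far these arrays differ, which may be technical.

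Integrins are surface receptors made of an alpha and a beta chain, and a chain without a partner is held inside the cell. Alpha v pairs with any of 5 beta chains, and the resulting dimers bind matrix proteins or latent TGF-β through a short arginine-glycine-aspartate stretch in the ligand. The αvβ3 dimer binds vitronectin, fibronectin and osteopontin and has been described as a cell-surface binding site for thyroid hormone, αvβ5 binds vitronectin, αvβ1 binds fibronectin and latent TGF-β, and αvβ6 and αvβ8 are known as activators of latent TGF-β. β1 also pairs with many other alpha chains, whereas β5, β6 and β8 pair with alpha v alone.

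The arrays were alike in scale, with a median log2 expression of 6.49 to 6.51. Untreated replicate 2 stood apart: its median absolute log2 difference to the other arrays was 0.237 to 0.244, whereas the pairs without it differed by 0.193 to 0.208. Values without it are given beside the results they belong to where it moves them by over 1.5 times. The label of the cells was checked against marker genes. Of 8 measured sympathetic neuroblast markers 6 were above the negative controls on all 4 arrays (TH and DBH, the catecholamine synthesis enzymes, on none), and so were 7 of 7 mesenchymal markers. None of the 5 endothelial and 5 epithelial markers was above the negative controls on any array. For comparison, 40.6% of all probe sets tested were above them on all 4 arrays. Of 5 leukocyte markers, CD14, CD3E and LYZ were above on none and ITGAX on 1. PTPRC, which encodes CD45, was the exception, at 12.71 and 12.57 in treated cells and 12.75 and 12.80 in untreated cells. Whether that signal comes from PTPRC transcripts or from the behaviour of its probes was not tested, and it is included in the list mean that follows. The mean log2 expression of the leukocyte list was 6.797 and 6.951 on treated arrays, against 7.002 and 7.426 on untreated arrays. That of the mesenchymal list was 10.70 and 10.49 on treated arrays, against 10.47 and 10.29 on untreated arrays. In the other marker lists the groups overlapped. The sympathetic list was at 9.41 and 9.34 on treated and 9.42 and 9.16 on untreated arrays. The endothelial list was at 3.86 and 4.15 on treated and 4.14 and 4.11 on untreated arrays. The epithelial list was at 3.59 and 3.91 on treated and 3.77 and 4.05 on untreated arrays. The part of these list means in the values below was not tested.

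Which subunits were detected was read against 612 negative-control probe sets on each array. A gene was called above them where its log2 expression exceeded their 95th percentile, which lay at 7.19 and 7.25 on the treated arrays and at 7.31 and 7.64 on the untreated arrays. By that limit 3 of the 6 genes, ITGAV, ITGB1 and ITGB5, were above the negative controls on all 4 arrays, and ITGB3, ITGB6 and ITGB8 were above on none. Of all 21448 probe sets tested, 40.6% were above on all 4 arrays. Transcripts of both chains were therefore above the limit for αvβ1 and αvβ5 on all 4 arrays, and for αvβ3, αvβ6 and αvβ8 on none. A transcript above the limit does not show that the protein is made or paired, and one below it may still be present at a low level. Probe sets differ in brightness, so levels are compared between arrays for a gene and not between genes.

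**Figure D1:**
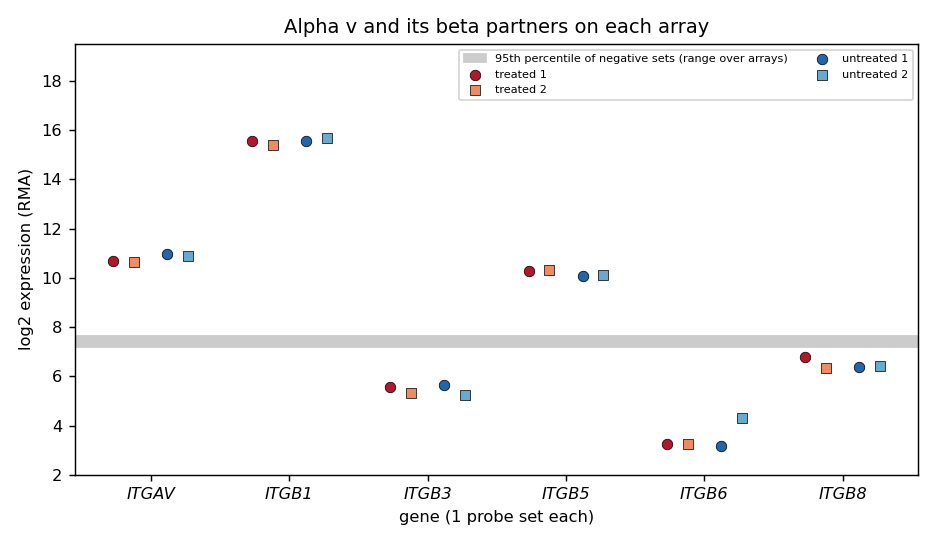
Log2 expression of the 6 subunit genes on each treated (red) and untreated (blue) array, as deposited. The grey band, from 7.19 to 7.64, covers the detection limits of the 4 arrays, each the 95th percentile of its negative sets. ITGAV, ITGB1 and ITGB5 lie above it on every array and ITGB3, ITGB6 and ITGB8 below it on every array.

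ITGAV, the alpha chain common to all of these dimers, had a log2 expression of 10.68 and 10.63 on the treated arrays and 10.96 and 10.90 on the untreated arrays. Both treated arrays lay below both untreated arrays, and every array was at least 3.26 above its own limit on the log2 scale. ITGAV exceeded 99.2% and 99.3% of the negative sets on the treated arrays, and 99% of them on each untreated array. ITGB1, the widely shared β1 chain, stood at 15.57 and 15.41 on the treated arrays and 15.56 and 15.70 on the untreated arrays. It exceeded 100% of the negative sets on every array, and its groups overlapped.

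ITGB5, the β5 chain of the vitronectin receptor αvβ5, stood at 10.27 and 10.34 on the treated arrays and 10.07 and 10.12 on the untreated arrays. Both treated arrays lay above both untreated arrays. The level of ITGB5 was 2.48 to 3.09 above the limit on the log2 scale. At a stricter limit, the 99th percentile of the negative sets, ITGB5 was above on 1 of 2 treated and 1 of 2 untreated arrays, while ITGAV and ITGB1 stayed above on all 4.

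ITGB3, which encodes the β3 chain of the integrin in the series title, had a log2 expression of 5.55 and 5.31 on the treated arrays and 5.67 and 5.25 on the untreated arrays. It lay 1.64 to 2.39 below the limit, and its groups overlapped. ITGB3 was brighter than 81.2% and 79.1% of the negative sets on the treated arrays, and than 81.9% and 74.2% of them on the untreated arrays. Against the 75th percentile of the negative sets it would be above on both treated arrays and on 1 of 2 untreated arrays, and against the 90th percentile on none. The other chain that pairs with β3, the platelet subunit αIIb encoded by ITGA2B, was also below the limit on every array, at 6.47 and 6.30 on treated and 5.62 and 6.37 on untreated arrays.

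ITGB8, the β8 chain, came nearest to the limit of the 3 genes below it. Its log2 expression was 6.79 and 6.32 on the treated arrays and 6.38 and 6.41 on the untreated arrays, with treated replicate 1 the highest and treated replicate 2 the lowest. ITGB8 lay 0.40 and 0.92 below the limit on the treated arrays, and 0.93 and 1.23 below it on the untreated arrays. It exceeded the 90th percentile of the negative sets on 1 treated and 1 untreated array, and the 75th percentile on all 4. Its call as not detected therefore depends on where the limit is set.

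ITGB6, the β6 chain of epithelial cells, was at 3.26 and 3.25 on the treated arrays and 3.17 and 4.29 on the untreated arrays. Untreated replicate 2 was the high one, and the other 3 arrays lay within the lower part of the negative sets, brighter than 24.0% to 28.6% of them. On untreated replicate 2 ITGB6 was brighter than 55.6% of the negative sets. The beta subunits that do not pair with alpha v, namely ITGB2, ITGB4 and ITGB7, were below the limit on all 4 arrays as well, between 3.47 and 4.89. ITGB1 and ITGB5 were thus the 2 beta subunit genes above the negative controls among the 8 measured.

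**Figure D2:**
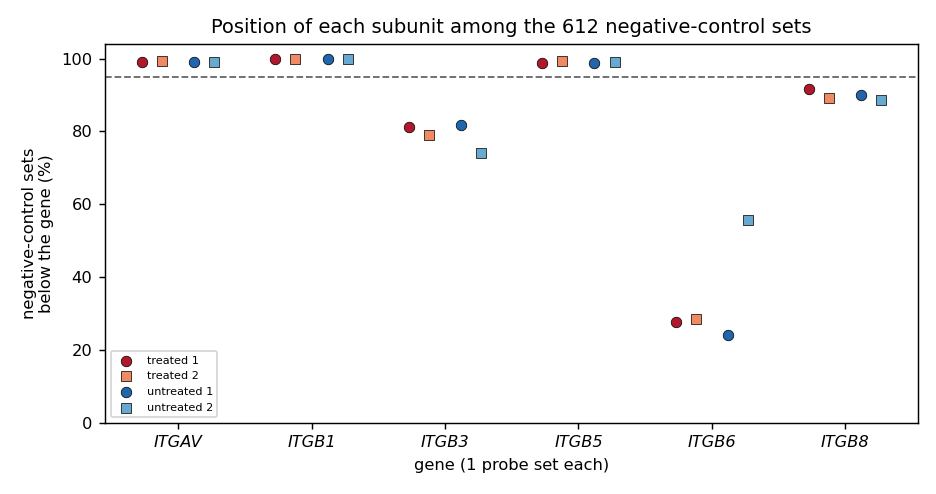
Share of the 612 negative-control sets that lay below each subunit gene on each treated (red) and untreated (blue) array, in percent. The dashed line marks 95%. ITGB8 lies between 88.7% and 91.7%, just under the line, ITGB3 between 74.2% and 81.9%, and ITGB6 between 24.0% and 55.6%.

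The bases before the transcription start were read for ITGAV, ITGB1, ITGB5, ITGB6 and ITGB8 from the RefSeq promoter table of GRCh38.p14, in windows of 250 bases. The windows at the outermost annotated start of ITGB1, ITGB5 and ITGB6 are shown, because they span the widest range of base composition and include detected and undetected beta subunits. Capitals mark the GC box GGGCGG, on either strand, which the transcription factor SP1 is known to bind. The ITGB1 window is chr10:32958231-32958480, the ITGB5 window chr3:124901419-124901668 and the ITGB6 window chr2:160200273-160200522, all on the minus strand and written 5′ to 3′.
ITGB1: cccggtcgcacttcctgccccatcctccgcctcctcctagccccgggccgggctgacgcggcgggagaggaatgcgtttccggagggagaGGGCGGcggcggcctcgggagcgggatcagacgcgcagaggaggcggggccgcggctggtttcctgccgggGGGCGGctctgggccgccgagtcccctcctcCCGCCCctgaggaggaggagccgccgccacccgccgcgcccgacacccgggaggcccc
ITGB5: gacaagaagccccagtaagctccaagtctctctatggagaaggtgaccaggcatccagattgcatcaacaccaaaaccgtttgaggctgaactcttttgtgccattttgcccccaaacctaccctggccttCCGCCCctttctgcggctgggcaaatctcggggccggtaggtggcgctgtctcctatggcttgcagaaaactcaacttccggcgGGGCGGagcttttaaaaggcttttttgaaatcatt
ITGB6: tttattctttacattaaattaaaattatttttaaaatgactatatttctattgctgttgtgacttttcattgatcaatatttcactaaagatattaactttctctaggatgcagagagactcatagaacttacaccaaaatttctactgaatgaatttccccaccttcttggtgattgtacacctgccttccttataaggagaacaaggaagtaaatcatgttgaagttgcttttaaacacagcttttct

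ITGB1 held 3 GC boxes and 32 CpG pairs in a window with 78.4% G or C, a higher share than in 94.8% of all 35116 windows. ITGB5 held 2 GC boxes and 9 CpG pairs at 52.8% G or C. ITGB6 held 0 of either at 30% G or C, and 1.52% of the windows had a lower share. The outermost ITGAV window (70.8% G or C, 18 CpG pairs) held no GC box, and the ITGB8 window (71.2%, 21 CpG pairs) held 2. The ITGB8 window lies before an annotated start that is not the outermost one of that gene, so it is not matched to the other windows. Across all windows 42.6% held a GC box, 10.7% a TATA box (TATAAA) and 4.2% an AP-1 site (TGACTCA), each searched on both strands. None of these 5 windows held a TATA box or an AP-1 site by these letters. ITGAV, ITGB1 and ITGB5 also have windows at inner annotated starts, which differ in composition. For ITGB5 these held 3 GC boxes at 75.2% G or C and 0 at 56.4%. The inner ITGB1 window held 0 GC boxes and 3 TATA boxes at 41.6%, and the inner ITGAV window 0 GC boxes at 40.8%. Which start these cells use was not tested.

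The question put by the design is whether BG-P400-TAT changed the transcriptome, and none of the 6 subunit genes passed the test. With limma across 21448 probe sets, 0 probe sets (0%) had a Benjamini-Hochberg adjusted p under 0.05, and 1089 (5.08%) had an unadjusted p under 0.05, among them 0 of the 6 subunits. The groups did not overlap for 2 of the 6, ITGAV lower and ITGB5 higher in treated cells. Over all probe sets that held for 33.1% (16.4% higher and 16.8% lower), and for 31.8% of the 8705 above the negative controls on all 4 arrays, so 2 of 6 is near the background share. With 2 arrays against 2, an exact two-sided permutation test of a single gene cannot give a p below 0.333.

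ITGAV averaged 10.65 ± 0.035 in treated cells and 10.93 ± 0.045 in untreated cells (SD, n = 2 each). The log2 difference was -0.28 (interval -0.71 to 0.15, limma adjusted p = 0.949). Intervals here and below are 95% confidence intervals of the limma fit. This is 0.824-fold, with an interval from 0.612- to 1.11-fold, so a 2-fold fall lay outside it. Leaving out 1 array gave -0.31 to -0.25, and -0.31 without untreated replicate 2. Of the probe sets above the negative controls on all 4 arrays, 14.3% had a larger absolute difference than ITGAV.

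ITGB5 averaged 10.30 ± 0.045 in treated cells and 10.10 ± 0.036 in untreated cells (SD, n = 2 each), a log2 difference of 0.21 (interval -0.22 to 0.64, limma adjusted p = 0.963). The fold was 1.15, with an interval from 0.857 to 1.55. With 1 array left out the difference was 0.17 to 0.24, and 25.6% of the probe sets above the negative controls differed by more. ITGB1 averaged 15.49 ± 0.11 in treated cells and 15.63 ± 0.099 in untreated cells (SD, n = 2 each), a log2 difference of -0.14 (interval -0.58 to 0.31, limma adjusted p = 0.985). Its fold was 0.911, with an interval from 0.668 to 1.24. The difference of ITGB1 was -0.055 without treated replicate 2 and -0.065 without untreated replicate 2, and -0.22 and -0.20 without treated and untreated replicate 1. For these 3 genes a 2-fold change in either direction lay outside the interval, while smaller changes of either sign, or none, lay within it.

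**Figure D3:**
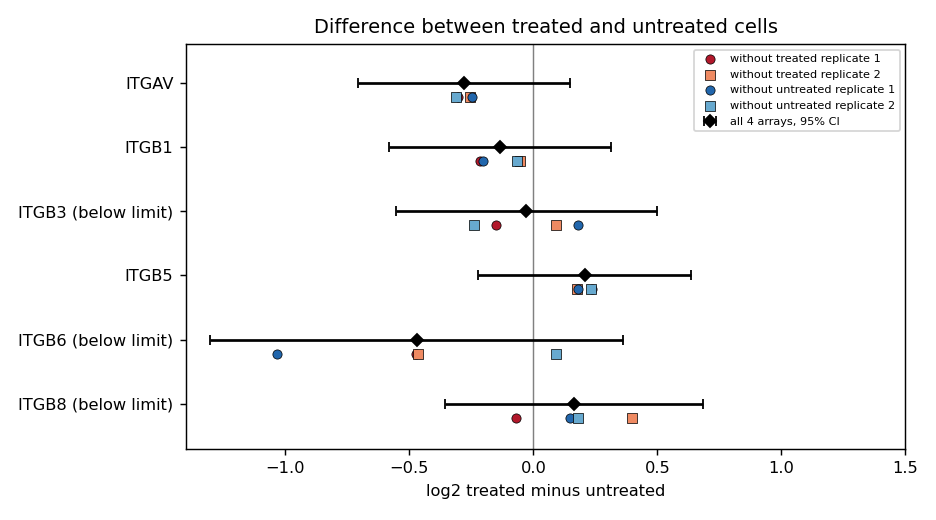
Log2 difference of treated minus untreated cells for each subunit gene. Black diamonds with bars give the value over 4 arrays with the 95% limma confidence interval, and coloured points the value with 1 array left out. All 6 intervals include 0. The points of ITGAV (-0.31 to -0.25) and ITGB5 (0.17 to 0.24) stay on 1 side of 0, which is fixed because their groups do not overlap. Differences of genes marked as below the limit are not read as changes.

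ITGB3, ITGB6 and ITGB8 were below the limit on all arrays, so no fold is given for them. Their groups overlapped in all 3 cases. The opposite signs of ITGB5 and ITGAV were also read within each array, as ITGB5 minus ITGAV on the log2 scale, a pair chosen after its values were seen. That quantity was -0.40 and -0.29 on the treated arrays and -0.89 and -0.78 on the untreated arrays, a difference of 0.49 between the group means. Its separation of the groups was fixed, because ITGAV was lower and ITGB5 higher on both treated arrays. It is therefore no further observation. ITGB1 minus ITGAV was 4.90 and 4.79 on the treated arrays and 4.60 and 4.80 on the untreated arrays, where the groups overlapped. Only the movement between arrays is meaningful here, since each probe set has its own brightness, and no test was made.

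Among 7649 other named genes above the negative controls on all 4 arrays, the 3 whose values ran closest to those of ITGAV were ST3GAL6, a sialyltransferase, ZNF440, a zinc finger gene, and SCAF11, a splicing-related gene. The root mean square difference from ITGAV, after centring each gene on its own mean, was 0.013, 0.020 and 0.025 on the log2 scale. ST3GAL6 stood at 12.85 and 12.79 on the treated arrays and 13.11 and 13.08 on the untreated arrays. Likeness over 4 arrays is easily reached among so many genes and is given as a description.

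Most genes for ligands of alpha v dimers were below the limit, as were most probe sets, of which 40.6% were above it on all 4 arrays. Of 27 measured genes for ligands and latent TGF-β carriers, 5 were above the negative controls on all 4 arrays (FN1, THBS1, MFGE8, L1CAM and TGFB1), 3 on some arrays and 19 on none. FN1, fibronectin, had a log2 expression of 9.42 and 9.75 on the treated arrays and 9.57 and 8.83 on the untreated arrays. TGFB1, the latent growth factor that several alpha v dimers bind, stood at 9.53 and 9.27 on the treated arrays and 9.28 and 8.67 on the untreated arrays. In both genes untreated replicate 2 was the lowest array and the groups overlapped. VTN, vitronectin, the shared ligand of αvβ3 and αvβ5, was below the limit at 5.81 and 6.37 on treated and 6.18 and 5.99 on untreated arrays. SPP1, osteopontin, was below it as well, between 3.46 and 4.08, and so was TGFB3, between 4.34 and 4.83. LTBP1, which anchors latent TGF-β in the matrix, was near the limit, at 7.32 and 6.31 on treated and 7.48 and 7.26 on untreated arrays.

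None of the ligand genes passed the limma test. The log2 difference was 0.43 for TGFB1 (interval -0.18 to 1.03, limma adjusted p = 0.948) and 0.38 for FN1 (interval -0.29 to 1.05, limma adjusted p = 0.954). With 1 array left out, TGFB1 ranged from 0.12 (without untreated replicate 2) to 0.73 (without untreated replicate 1). FN1 ranged from 0.011 (without untreated replicate 2) to 0.75 (without untreated replicate 1), and was 0.22 without treated replicate 2. THBS1, thrombospondin 1, had 0.18, and its sign turned without untreated replicate 2 (-0.022) or treated replicate 2 (-0.011). Without untreated replicate 1 the difference of THBS1 was 0.38. Of the 5 genes above the limit, 4 differences were positive, against 57.9% of all probe sets above it. The median log2 difference was 0.18 over these 5 genes, against 0.034 over all probe sets above the limit. Over the 27 measured genes the median was 0.12, against -0.0046 over all probe sets tested. Of those 27 genes 19 were above the limit on no array, so that median is not read as a change. It was lower with any array left out: 0.071 without treated replicate 1 and 0.044 without treated replicate 2. Without untreated replicate 1 it was 0.059, and without untreated replicate 2 it was 0.042.

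Genes for proteins that bind the beta tail or build the adhesion site inside the cell mostly had transcripts above the limit. The share of all probe sets tested that was above the negative controls on all 4 arrays was 40.6%. Of 21 measured genes 14 were above the negative controls on all 4 arrays, including FERMT2 (kindlin-2, which activates integrins from the cytoplasm), ILK (a pseudokinase that links the beta tail to actin), PTK2 (focal adhesion kinase), SRC, VCL (vinculin) and CD47 (an integrin-associated surface protein). The other 7, namely TLN2, FERMT1, LIMS2, PARVA, PARVB, TNS3 and DAB2, were above on no array. TLN1, FLNA and TNS1 were not among the measured genes. PXN, the focal adhesion scaffold paxillin, stood at 11.45 and 11.43 on the treated arrays and 10.74 and 10.76 on the untreated arrays. The treated arrays lay well above the untreated arrays, and replicates were close. PXN differed by 0.69 on the log2 scale (interval 0.26 to 1.12) and did not pass (limma adjusted p = 0.948). The difference was 0.67 to 0.70 with 1 array left out, a narrow range that follows from the close replicates and adds no support. PXN is named for having the smallest p of the 14. At an unadjusted p under 0.05 PXN was the 1 gene of the 14, against 1.91% of all probe sets above the limit.

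ZYX, zyxin, which sits at tension-bearing adhesion sites, stood at 10.54 and 11.00 on the treated arrays and 10.49 and 10.17 on the untreated arrays. Its log2 difference was 0.44 (interval -0.12 to 1.00), and 0.21 (without treated replicate 2) to 0.67 (without treated replicate 1) with 1 array left out. Without untreated replicate 2 it was 0.28. BCAR1, the adaptor p130Cas, had 0.25 (interval -0.23 to 0.72), which was 0.086 without treated replicate 2 and 0.40 without treated replicate 1. FERMT2 had -0.16 (interval -0.61 to 0.29), which was -0.28 without treated replicate 1 and -0.051 without treated replicate 2. ILK had 0.055 (interval -0.42 to 0.53), and ranged from -0.11 (without treated replicate 2) to 0.22 (without treated replicate 1). Of the 14 genes 8 differences were positive and 6 negative, and the groups did not overlap in 6 (4 higher and 2 lower in treated cells), against the background of 31.8%. The median log2 difference was 0.10 over these 14 genes, against 0.034 over all probe sets above the limit. Over the 21 measured genes, 7 of which were above the limit on no array, the median was 0.13. That median was 0.040 without treated replicate 1 and 0.066 without untreated replicate 2.

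The other alpha chains that pair with β1 were also read. Of 11 measured alpha subunits that pair with β1 or β3, 6 were above the negative controls on all 4 arrays: ITGA2, ITGA3, ITGA5, ITGA6, ITGA8 and ITGA11. Over all probe sets tested that share was 40.6%. ITGA5, which with β1 forms the main fibronectin receptor, stood at 10.46 and 10.45 on the treated arrays and 10.20 and 10.08 on the untreated arrays, a log2 difference of 0.31 (interval -0.12 to 0.75). ITGA11, a collagen-binding partner of β1, stood at 10.82 and 10.60 on the treated arrays and 10.08 and 9.77 on the untreated arrays. Its log2 difference of 0.78 (interval 0.29 to 1.27) did not pass at a limma adjusted p of 0.948. ITGA3, a laminin-binding partner, had 0.30 (interval -0.16 to 0.76), and 0.17 without untreated replicate 1 and 0.44 without untreated replicate 2. Of the 6, 4 differences were positive, against 57.9% of all probe sets above the limit. The groups did not overlap in 3, all higher in treated cells. Of the probe sets above the limit, 31.8% did not overlap in either direction. Of all probe sets tested, 16.4% did not overlap and were higher in treated cells. The median log2 difference was 0.19 over these 6 genes (0.034 over all probe sets above the limit) and -0.016 over the 11 measured genes, 5 of which were below it. The median over the 11 was 0.080 without treated replicate 1, 0.12 without treated replicate 2, 0.019 without untreated replicate 1 and -0.031 without untreated replicate 2.

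**Figure D4:**
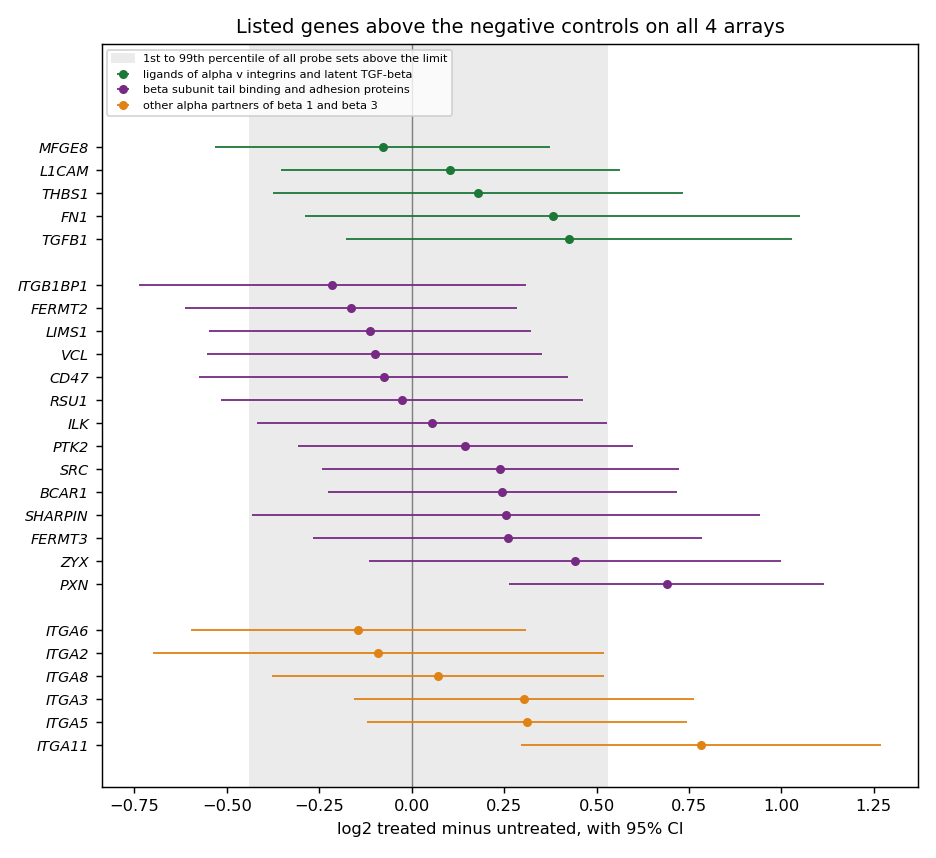
Log2 difference of treated minus untreated cells, with 95% limma confidence intervals, for the ligand, adhesion-protein and alpha subunit genes above the negative controls on all 4 arrays. The grey area spans the 1st to 99th percentile of all probe sets above that limit, from -0.44 to 0.53. PXN (0.69) and ITGA11 (0.78) lie beyond it, and their intervals exclude 0, but neither passed after adjustment.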

How the data were processed

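Gene expression was measured with whole-transcript arrays on 4 RNA samples of SK-N-AS cells. The authors deposited log2 expression per probe set, made with Transcriptome Analysis Console 4.0.1.36 and RMA, per the submitters' processing notes. RMA removes background, gives all arrays one distribution and combines the probes of a set, so it would hide a shift of most genes at once. That the unit is log2 follows from the values' range (1.74 to 18.5). For the genome build of the probe sets, nothing is stated in the labels or the file header.

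Of 24351 probe sets, 2903 controls were left out of the test. The platform annotation names 17709 of the other 21448 with 1 symbol, and the brightest probe set stood for a gene. Groups were compared by limma (version 3.58.1, R 4.3.3; lmFit, then eBayes), two-sided, with Benjamini-Hochberg adjustment, and 2 residual and 4.90 prior degrees of freedom. The fit was also run on simulated data with added changes. Their noise was drawn from the fit's own variance model, so that run does not test whether the model holds for these arrays.

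The members and lists were chosen with earlier results of these data known. Named genes are the 6 members, 12 preset genes, and from each list up to 3 genes with the smallest p among those above the negative controls on all 4 arrays. TGFB2, TLN1, FLNA, TNS1 and ITGA1 are unnamed here. Other genes (MFGE8, L1CAM, PTK2, SRC, VCL, CD47, TLN2, FERMT1, LIMS2, PARVA, PARVB, TNS3, DAB2, and the remaining subunits) are named for detection only. Alternatives covered normalization, filters, variance moderation, a replicate block, array weights, the background limit and each array left out.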

Additional observations from a re-analysis of the deposited data

How the results depend on the processing

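No alternative gave a call. At a limma adjusted p under 0.05, 0 subunits passed in 15 other settings, although keeping only probe sets above the median or above the negative controls left 3 of the 6 to test, and keeping those above the 25th percentile left 5. Over all probe sets 0 passed in the 14 settings that test probe sets. The probe sets with an unadjusted p under 0.05 numbered 1089 with all arrays. There were 550 among those above the median and 509 among those above the negative controls, both with fewer probe sets tested. Such counts are not compared for fits with an array left out, since these leave 1 array in a group. Over the 15 settings ITGAV ranged from -0.33 to -0.25, ITGB1 from -0.22 to -0.055 and ITGB5 from 0.16 to 0.24. Filters, variance moderation, the replicate block, array weights and averaging a gene's probe sets left these differences as they were. Only normalization and leaving out an array could move them. For ITGAV and ITGB5, whose groups did not overlap, leaving out 1 array could not turn the sign. The log2 differences of the 3 genes below the negative controls turned sign and are not read as changes. ITGB3 was -0.029 with all arrays, 0.030 after quantile normalization, 0.0085 after cyclic loess, 0.093 without treated replicate 2 and 0.18 without untreated replicate 1, and ranged from -0.24 to 0.18 with 1 array left out. ITGB6 turned to 0.091 without untreated replicate 2 (range -1.03 to 0.091) and ITGB8 to -0.071 without treated replicate 1 (range -0.071 to 0.40). THBS1 (-0.022 to 0.38) and ILK (-0.11 to 0.22) also crossed 0 with an array left out. The cause was not tested.

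At the 95th percentile of the negative sets, 3 subunits were above on all 4 arrays. The count was 2 at the 99th percentile, 3 at the 90th, 4 at the 75th and 3 at the median of all probe sets tested. Each normalization also gave 3. Leaving out any array gave 3 as well, which was fixed because each subunit was above on all 4 arrays or on none. With the replicate number as a block, 0 probe sets and 0 subunits passed and 1079 probe sets had an unadjusted p under 0.05. Same-numbered arrays did not deviate together (correlation -0.00085 over all probe sets, 0.033 over those above the negative controls), so the numbers were not taken as pairs. The signal over background limits ITGB3, ITGB6 and ITGB8. The array's own background sets, grouped by the number of G or C bases in their probes, ranged from 2.28 to 8.51 on average, so a single limit is coarse. Precision is limited by having 2 arrays a group.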
